A study of Homo sapiens with 66 samples.

Results

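Binding of hypoxia-inducible factor (HIF) was examined at 9 genes that recur in transcriptional signatures of hypoxia: ANKRD37, AK4, FAM162A, WSB1, ERO1A (also called ERO1L), MIF, ZNF395, TMEM45A and KCTD11. A ChIP-seq peak was given to 1 of these genes if its centre lay in the gene body or within 50 kb of a start site of the gene, and nearer to a start site of that gene than to one of any other protein-coding gene. By this rule 408 of the 131425 peaks in 50 libraries belonged to the signature genes, which were 9 of the 12108 protein-coding genes that had a peak in any library.

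The study mapped both oxygen-regulated isoforms, HIF-1α and HIF-2α, and their shared partner HIF-1β in human cell lines, with rabbit polyclonal antibodies PM14, PM9 and NB100-110 respectively, and asked how isoform, severity and duration of hypoxia, loss of the other isoform, and cell type alter binding. HKC8 (HKC-8), a kidney proximal tubule line, was exposed to hypoxia of 0.5% oxygen (durations of 6 h, 16 h and 48 h) or of 3% oxygen (6 h), and each of these 4 conditions had all 3 antibodies. In a separate experiment HKC8 cells that were wild-type (WT), or lacked HIF-1α or HIF-2α after CRISPR-Cas9 editing, were held in 0.5% oxygen for 16 h. The knockout lines were single clones, WT had all 3 antibodies, and each knockout had HIF-1β and the remaining α subunit. RCC4, a renal carcinoma line with defective VHL in which HIF-α is stable in normal oxygen, was used in normoxia, and HepG2, a liver cancer line, was held in 0.5% oxygen for 16 h. Each of the 25 groups had 2 libraries. The study describes the 2 as independent ChIP-seq experiments without saying whether the cultures were separate, so a p-value here measures only the spread between these libraries, which may be partly technical. Peak lists hold no expression, so neither the identity of the lines nor the loss of the edited subunit could be checked.

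The lists held 237 to 8279 peaks. The shortest, HIF-2α replicate 2 at 48 h with 237 peaks, had no peak at any of the 9 genes. In HepG2, 6.71% and 28.6% of the peaks of the 2 libraries labelled HIF-1α lay within 1 kb of a coding start site, against 30.5% and 8.07% in the 2 labelled HIF-2α, so that HIF-1α replicate 1 resembled HIF-2α replicate 2 and the other 2 libraries resembled each other. Isoform results for genes are therefore given also without HepG2 and without the 48 h condition, and those for sites also without HepG2. Sequencing depth is not part of these files, and a gene without a peak had none that reached the authors' peak threshold, which does not show that it was unbound.

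HIF-α subunits are hydroxylated in oxygen and then degraded through the VHL ubiquitin ligase. In hypoxia they persist, pair with HIF-1β and bind hypoxia response elements, whose core is RCGTG, and both isoforms recognise that core. HIF-1α is best known for driving glycolytic and mitochondrial adjustment and HIF-2α for genes such as erythropoietin. The 9 genes have diverse roles. AK4 is an adenylate kinase of the mitochondrial matrix and FAM162A a mitochondrial protein linked to cell death in hypoxia. ERO1A reoxidises protein disulfide isomerase in the endoplasmic reticulum. WSB1 is a substrate receptor of a Cullin-5 ubiquitin ligase and KCTD11 an adaptor of a Cullin-3 ligase that restrains Hedgehog signalling. MIF is a secreted cytokine, ZNF395 a zinc finger DNA-binding protein, TMEM45A a membrane protein of many spans, and ANKRD37 an ankyrin repeat protein of little known function.

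The peaks fell into 27 merged sites, of which 17 were seen in at least 2 libraries. Each gene had a site within 1 kb of a start site, and for ANKRD37, AK4, FAM162A, WSB1, ERO1A, MIF, TMEM45A and KCTD11 that site was called in more libraries than any other site of the gene. The sequence at these 8 sites is shown on the strand of the gene, from GRCh37 (hg19), together with a second AK4 site 48.0 kb downstream of the start whose calls differed from those of the first. Capitals mark the core ACGTG or GCGTG or its reverse complement CACGT or CACGC. Windows of 100 bp to either side of the site centre are given for AK4 and ANKRD37, the part ahead of the annotated transcript for FAM162A and WSB1, and 30 bp around the core nearest to the centre for the others, whose windows overlap exons.
ANKRD37 (chr4:186317626-186317826, plus strand, 0.26 kb before the nearest coding start, in an intron of a longer transcript): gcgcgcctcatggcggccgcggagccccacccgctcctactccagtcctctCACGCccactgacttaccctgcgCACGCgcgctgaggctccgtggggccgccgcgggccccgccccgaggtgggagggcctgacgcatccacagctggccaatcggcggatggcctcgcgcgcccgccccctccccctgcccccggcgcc
AK4 promoter-proximal site (chr1:65614263-65614463, plus strand, intron): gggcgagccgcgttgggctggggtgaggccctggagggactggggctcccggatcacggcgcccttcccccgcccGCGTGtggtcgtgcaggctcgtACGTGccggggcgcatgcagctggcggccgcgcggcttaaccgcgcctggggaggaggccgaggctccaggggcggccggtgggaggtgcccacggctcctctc
AK4 intronic site (chr1:65661824-65662024, plus strand, intron): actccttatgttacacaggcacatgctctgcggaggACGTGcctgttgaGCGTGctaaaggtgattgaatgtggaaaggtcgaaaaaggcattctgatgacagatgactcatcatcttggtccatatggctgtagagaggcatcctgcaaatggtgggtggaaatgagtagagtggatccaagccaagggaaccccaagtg
FAM162A (chr3:122102844-122103007, plus strand, upstream of the gene): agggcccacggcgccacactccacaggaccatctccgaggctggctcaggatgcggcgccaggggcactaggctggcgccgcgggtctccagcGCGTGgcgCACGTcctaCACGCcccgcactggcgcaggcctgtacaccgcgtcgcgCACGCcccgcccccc
WSB1 (chr17:25620995-25621101, plus strand, upstream of the gene): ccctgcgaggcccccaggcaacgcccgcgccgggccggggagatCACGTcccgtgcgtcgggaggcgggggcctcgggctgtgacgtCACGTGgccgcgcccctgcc
ERO1A (chr14:53162373-53162402, minus strand, transcript start): cgggcgccgcggCACGTccacaggctgggt
MIF (chr22:24236674-24236703, plus strand, coding exon): atcgtaaacaccaACGTGccccgcgcctcc
TMEM45A (chr3:100211502-100211531, plus strand, transcript start): gacgtcagccgagCACGTccccCACGTcct
KCTD11 (chr17:7255224-7255253, plus strand, transcript start): ccgccgacttgcagACGTGagatcgggcac

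The full window of the FAM162A promoter held 4 cores in all, that of WSB1 held 3 including the palindrome in capitals, and that of KCTD11 held 1, which lay 87 bp from the site centre. ACGTG or GCGTG on either strand occurred within 100 bp of the centre at 18 of the 27 sites (66.7%), against 33.9% of all 50169 merged sites of the series, and in 18.5% of windows 2 kb to either side of the signature gene sites. Among sites seen in at least 2 libraries the share was 15 of 17 (88.2%) at the signature genes and 55.4% over the series, and among all sites seen in 20 or more libraries it was 82.5%. Sites close to start sites hold the core more often in general (63.1% of the 4895 sites within 1 kb), and 10 of the 11 signature gene sites so placed held it (90.9%). These shares describe letters in a window and were not tested.

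ZNF395, on chromosome 8, differed from the other 8 genes in having several widely called sites. A site 9.364 kb upstream and an intronic site 0.462 kb before an alternative start were each called in 37 libraries, and an intronic site 9.45 kb downstream of a start in 35. The other ZNF395 sites were called in 12 libraries or fewer, and 10 of the 27 sites of the 9 genes were called in 1 library.

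**Figure D1:**
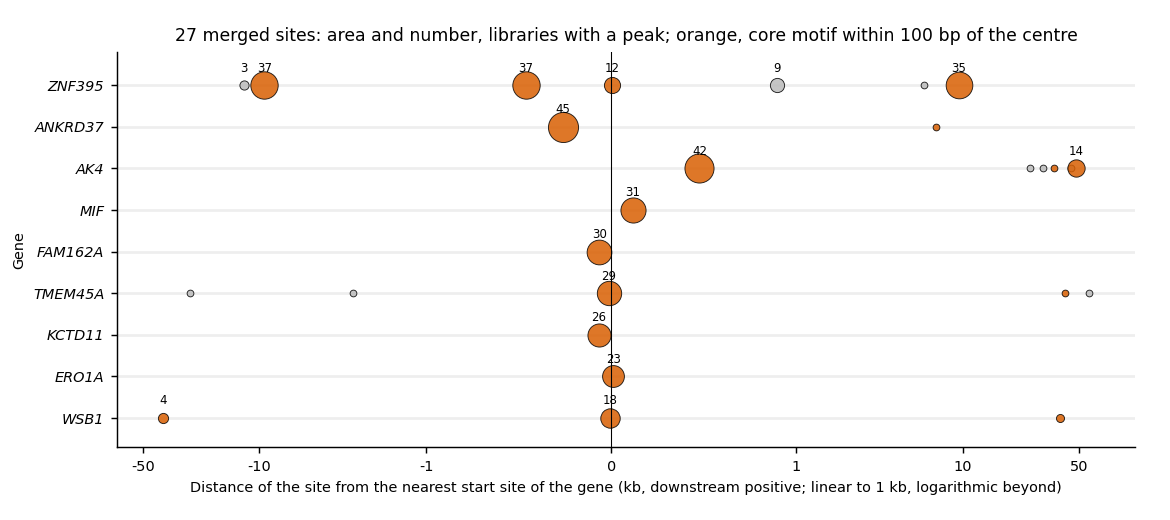
Each circle is 1 of the 27 merged sites, placed on the horizontal axis by its distance from the nearest start site of its gene in kb (linear to 1 kb, logarithmic beyond) and on the vertical axis by gene. Circle area and the printed number (for 3 or more) give the libraries with a peak, and orange marks the 18 sites with ACGTG or GCGTG within 100 bp of the centre. Each gene has a site within 1 kb of a start site, while ZNF395 has 3 sites in 35 to 37 libraries.

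The edge of the distance rule touched WSB1 most. It had 26 further peaks in 19 libraries beyond the limit, the nearest 55.6 kb away at a score percentile of 73.4, whereas its farthest accepted peak lay 38.5 kb away at 18.8. Peaks within reach but nearer to another coding gene numbered 18 for ANKRD37, 12 for FAM162A, 9 for KCTD11 and 0 to 2 for each of the other genes.

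How often the genes were called differed widely. ZNF395 had a peak in 49 of 50 libraries, ANKRD37 and AK4 in 45 each, MIF in 31, FAM162A and TMEM45A in 30 each, KCTD11 in 26, ERO1A in 23 and WSB1 in 21. The median of the 9 was 30 libraries, against 42.5 for 24 other hypoxia-response genes (among them VEGFA, CA9, PGK1 and EGLN3) and 3 for all coding genes with a peak, of which 6.14% had a peak in 20 or more libraries. In a library's list, a peak's place is given here as a score percentile, in which the best-scoring peak is near 100 and a gene without a peak is set to 0. The best peak of AK4, WSB1, ZNF395 or TMEM45A lay at different sites in different libraries. This is said for several of the comparisons it touches. Where called, ANKRD37 had a median percentile of 99.7, ZNF395 of 98.8 and AK4 of 96.4, while WSB1 had 73.8 and KCTD11 76.7. ANKRD37 often held one of the strongest peaks of a list, for example rank 2 of 1496 and of 1319 for HIF-1α at 6 h and rank 1 of 1073 in both HIF-1α libraries at 48 h.

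**Figure D2:**
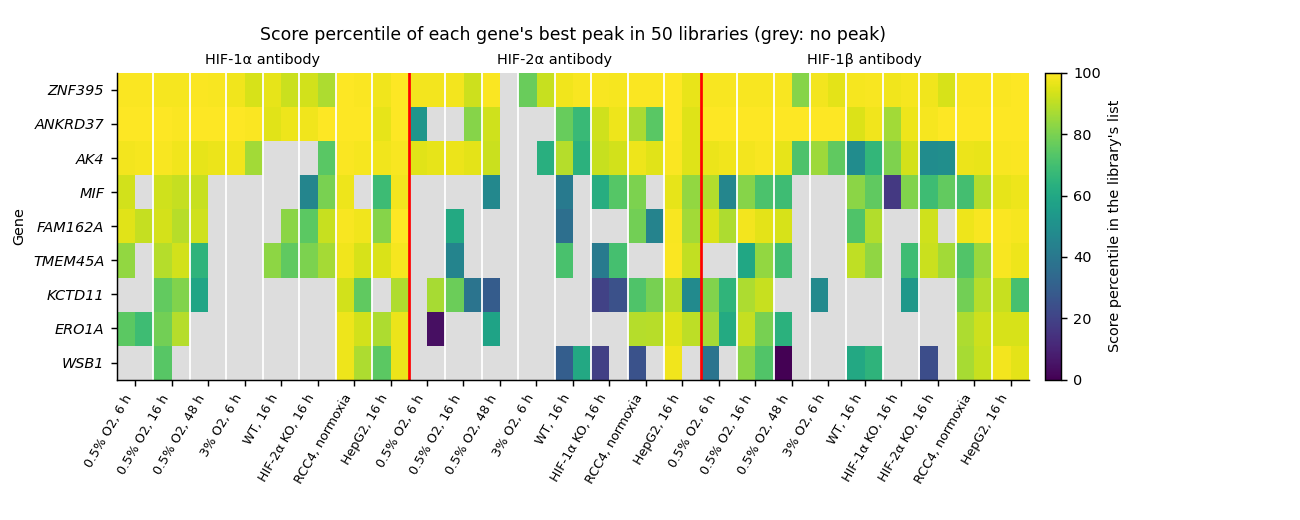
Colour gives the score percentile (0 to 100) of the best peak of each gene (vertical axis) in each of the 50 libraries (horizontal axis, grouped by antibody and condition, 2 libraries per block), and grey marks a gene without a peak. ZNF395, ANKRD37 and AK4 are called in 49, 45 and 45 libraries, and the other 6 genes have grey blocks in 3% oxygen and in the HIF-2α lists. ANKRD37 is also grey for HIF-2α in 3% oxygen, and AK4 for HIF-1α in WT.

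At these genes the α subunits mostly sat where HIF-1β did. The best HIF-1α peak overlapped a HIF-1β peak of the same condition in 94 of 97 cases and the best HIF-2α peak in 77 of 80 (96.9% and 96.2%), against 46.7% and 58.3% over all coding genes with a peak. The exceptions for HIF-1α were 2 at TMEM45A and 1 at KCTD11. All 9 genes were called in 21 or more libraries, against a median of 3 over all coding genes with a peak. The shares over all genes were not matched for this.

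To ask whether the genes are bound preferentially by 1 isoform, HIF-1α and HIF-2α percentiles were compared in the 28 libraries of the 7 conditions that have both, with an exact permutation test stratified by condition and adjusted over 7094 genes. ANKRD37 was the signature gene that passed (the background being 0.254% of genes called higher in HIF-1α and 0.296% called higher in HIF-2α). At an unadjusted p under 0.05, ANKRD37, TMEM45A, FAM162A and ERO1A were higher in HIF-1α (2.14% of genes) and 0 of the 9 were higher in HIF-2α (4.37%). A gene with a peak in 2 libraries was tested but cannot reach such a p. The shares and medians over all genes, here and in the comparisons below, were not matched for the number of libraries with a peak. ANKRD37 had a HIF-1α peak in 14 of 14 libraries and a HIF-2α peak in 9 of 14. Its HIF-1α percentiles were 99.9 and 99.9 at 6 h, 99.8 and 99.5 at 16 h, 99.95 and 99.95 at 48 h, 99.96 and 99.5 in 3% oxygen, 95.4 and 97.6 in WT, 99.9 and 99.9 in RCC4 and 96.2 and 99.6 in HepG2. The HIF-2α percentiles in the same order were 52.6 and 0, 0 and 81.8, 92.95 and 0, 0 and 0, 76.6 and 68.0, 87.3 and 74.4, and 99.8 and 94.99. HIF-1α lay above HIF-2α without overlap in 6 of 7 conditions, all but HepG2. The mean difference was 47.0 percentile points (SD over conditions 34.5, n = 7), with an exact permutation p of 2.14e-05 and an adjusted p of 0.038. Without HepG2 the difference was 54.8 points (adjusted p = 0.0116, exact permutation test), with 0.701% of 5137 genes called higher in HIF-1α and 1.05% in HIF-2α. The call was lost in 7 of 12 alternatives, although ANKRD37 remained higher in HIF-1α in all 12. One of the 7 left out the 48 h condition, where the difference was 45.97 points (adjusted p = 0.0921, exact permutation test) with as many arrangements of the libraries, 46656, as without HepG2.

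FAM162A and TMEM45A had the next largest differences and did not pass after adjustment. FAM162A had a HIF-1α peak in 10 of 14 libraries and a HIF-2α peak in 6. Its HIF-1α percentiles were 95.7 and 91.3 at 6 h and 93.4 and 89.2 at 16 h, against HIF-2α values of 0 and 0 at 6 h and 60.9 and 0 at 16 h, so the groups did not overlap at either time. In RCC4 they were 99.1 and 97.95 for HIF-1α and 78.6 and 44.7 for HIF-2α, again without overlap. The mean difference was 36.97 points (exact permutation p = 0.00527, adjusted p = 0.254). In WT HIF-1α replicate 1 a peak at percentile 60.6 overlapped the FAM162A promoter site, but its centre was nearer to the divergent neighbour MIX23. Counting by merged site, which includes it, gave 11 against 6 libraries, a difference of 41.3 points and an adjusted p of 0.0712 over 9413 sites (0.223% called higher in HIF-1α and 0.329% in HIF-2α), and 0.0392 without HepG2 (0.676% and 1.31%). This count by site was added after the data were seen.

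TMEM45A had a HIF-1α peak in 10 libraries and a HIF-2α peak in 4. In RCC4 its HIF-1α percentiles were 97.8 and 94.0 and both HIF-2α libraries lacked a peak, and at 16 h they were 88.9 and 93.2 against 45.2 and 0. HIF-1α was higher in 6 conditions and lower in none, with a mean difference of 40.5 points (exact permutation p = 0.00154, adjusted p = 0.122). At 6 h this rested on 1 HIF-1α peak (83.7), and neither HIF-1β library at 6 h had a TMEM45A peak. At 48 h it rested on 1 HIF-1α peak (65.1) in an intron 56.9 kb from a start, a site called in no other library. Counting by merged site, again added after the data were seen, the TMEM45A promoter site had 9 against 4 libraries. The difference there was 35.9 points (exact permutation p = 0.00309, adjusted p = 0.154). ERO1A differed by 18.7 points (exact permutation p = 0.0332, adjusted p = 0.613). Its HIF-1α values were 74.6 and 69.0 at 6 h and 78.6 and 89.0 at 16 h, and its HIF-2α values 0 and 4.09 at 6 h and 0 and 0 at 16 h, whereas in RCC4 both isoforms were high (97.5 and 93.2 against 88.8 and 89.3). HIF-2α had the higher ERO1A mean at 48 h (58.0 and 0 against no HIF-1α peak) and in HepG2 (92.6 against 92.4). Without HepG2 the differences were 43.5 points for FAM162A, 47.1 for TMEM45A and 21.8 for ERO1A, and without the 48 h condition 35.4, 41.9 and 26.6, with adjusted p of 0.082 or more in the exact permutation test.

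The other 5 genes gave unadjusted p from 0.129 to 0.747 in the exact permutation test. MIF differed by 20.4 points, WSB1 by 15.5, ZNF395 by 8.85, AK4 by 6.14 and KCTD11 by -3.43. Without HepG2 these were 24.9, 11.95, 10.2, 6.96 and 0.0714, and without the 48 h condition 20.03, 18.1, 2.06, -1.29 and -6.49. Percentiles of ZNF395 and AK4 were over 90 for both isoforms at 6 and 16 h, in RCC4 and in HepG2. KCTD11 had a HIF-1α peak in 6 of 14 libraries and a HIF-2α peak in 8, and its groups overlapped in every condition. The median difference over the 9 genes was 18.7 points with 8 of 9 above 0, against -0.0625 over all genes tested and 15.3 over the 24 other hypoxia-response genes, of which 19 were above 0 and 4 passed.

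**Figure D3:**
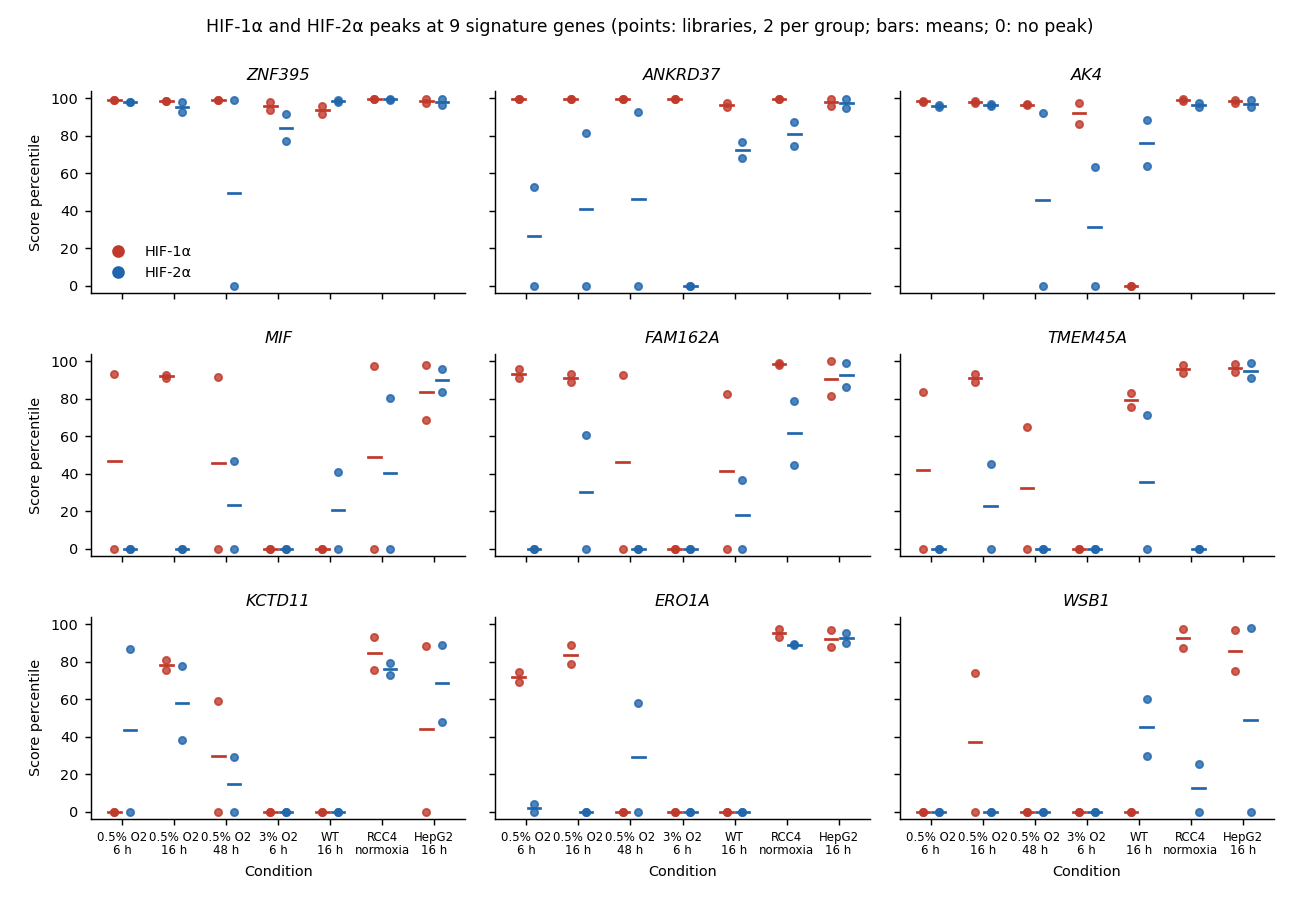
Each panel is 1 gene, the horizontal axis gives the 7 conditions with both antibodies and the vertical axis the score percentile. Points are libraries (2 per group), bars their means, red HIF-1α and blue HIF-2α, and 0 means no peak. ANKRD37 has all 14 HIF-1α points at 95.4 or higher, and HIF-2α lies below in 6 of 7 conditions, while ZNF395 and AK4 have both isoforms near the top in most conditions.

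Within the 2 genes that had several frequent sites, the isoform differences had opposite signs at different sites. At AK4 the promoter-proximal site was called in 12 HIF-1α and 11 HIF-2α libraries of the 14 each, and the intronic site in 0 and 4, the difference at the latter being -16.4 points (exact permutation p = 0.0833, adjusted p = 0.694). At ZNF395 the upstream site differed by 11.6 points, and the intronic sites 0.462 kb before and 9.45 kb after a start by -20.6 and -18.4 (exact permutation p = 0.251, 0.118 and 0.0324, adjusted p = 0.694, 0.694 and 0.557). Without HepG2 the difference was -19.1 points at the intronic AK4 site, and 13.5, -24.1 and -21.7 at the ZNF395 sites in the same order. None of these sites passed after adjustment, and the difference between sites was not tested.

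Severity was addressed by 3% against 0.5% oxygen at 6 h in 12 HKC8 libraries. Of the 9 genes, 5 to 8 had a peak in the HIF-1α and HIF-1β lists in 0.5% oxygen and 3 or 4 in 3%, and in the HIF-2α lists 3 and 4 in 0.5% and 1 and 2 in 3%. Coding genes with a peak numbered 819 to 981 per list in 0.5% oxygen and 360 to 786 in 3%. FAM162A had percentiles of 95.7 and 91.3 (HIF-1α) and 94.9 and 87.8 (HIF-1β) in 0.5% oxygen and no peak in any of the 6 libraries in 3%. ERO1A was called in 5 of 6 libraries in 0.5% oxygen, MIF in 3 and KCTD11 in 3, and in 3% oxygen in 0, 0 and 1. ANKRD37 stayed near the top, with HIF-1α and HIF-1β percentiles of 99.5 to 99.96 in 3% oxygen against 99.8 to 99.96 in 0.5%.

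No gene of 1695 passed the exact permutation test after adjustment (0% called in either direction), and the smallest p that 216 arrangements allow is 0.00926. At an unadjusted p under 0.05, 1 gene was higher (0.059%) and 41 were lower in 3% oxygen (2.42%). The lower ones included AK4 (a difference of -29.3 points, p = 0.00926), ZNF395 (-6.35 points, p = 0.00926) and ERO1A (-49.2 points, p = 0.0278), each with an adjusted p of 0.911 in the exact permutation test. AK4 had percentiles of 95.6 to 98.7 in its 6 libraries in 0.5% oxygen and of 0 to 97.8 in 3%, and the ranges overlapped only because HIF-1α replicate 1 in 3% oxygen reached 97.8. All 7 signature genes tested were lower in 3% oxygen, with a median of -30.9 points, against -5.30 over all genes tested and -23.5 over 22 of the other hypoxia-response genes. FAM162A, ERO1A and MIF had no peak in 3% oxygen. They entered the test through the libraries in 0.5% oxygen alone and could only come out lower. In 3% oxygen the AK4 value of HIF-2α replicate 2 (63.2) came from the intronic site, the promoter-proximal site being at 58.4. The ZNF395 value of HIF-2α replicate 1 in 3% oxygen (77.2) came from the intronic site 9.45 kb from a start. That library had no peak at the ZNF395 upstream site. WSB1 and TMEM45A had 1 peak each in these 12 libraries, both in 0.5% oxygen, and were not tested. Lists in 3% oxygen held 558 to 1223 peaks and those in 0.5% oxygen 1271 to 1496. With lists of equal length the differences were -58.2 points for FAM162A, -34.9 for ERO1A, -32.6 for MIF, -31.9 for AK4, -26.5 for KCTD11 and -6.43 for ZNF395, and ANKRD37 was at 0.0099.

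For duration, libraries at 16 and 48 h were compared with those at 6 h in 0.5% oxygen, 12 libraries each. Both comparisons share the 6 h libraries. At 16 h all 9 genes were called by HIF-1α replicate 1 and by both HIF-1β libraries. TMEM45A had 1 peak at 6 h (HIF-1α replicate 1, 83.7) and was called in 5 of 6 libraries at 16 h, at 88.9 and 93.2 for HIF-1α, 45.2 and 0 for HIF-2α, and 59.6 and 83.9 for HIF-1β. The difference was 47.9 points (exact permutation p = 0.0278, adjusted p = 0.908). KCTD11 went from 3 to 6 called libraries (a difference of 36.5 points) and WSB1 from 1 to 3 (31.8 points), with exact permutation p of 0.0833 and 0.167. No gene of 1982 passed after adjustment (0% in either direction), and 32 were higher (1.61%) and 4 lower (0.202%) at an unadjusted p under 0.05.

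At 48 h AK4 was lower than at 6 h by the ranks of all antibodies, at 96.4 and 97.1 (HIF-1α), 92.1 and 0 (HIF-2α) and 96.3 and 72.0 (HIF-1β), against 95.6 to 98.7 at 6 h. The difference was -21.7 points (exact permutation p = 0.00926, adjusted p = 0.956), and the value of 0 comes from the library with 237 peaks. It was -2.01 points without replicate 2, which holds that library and the HIF-1β value of 72.0, and -41.3 without replicate 1. ANKRD37 had percentiles of 99.76 to 99.95 for HIF-1α and HIF-1β at 48 h. FAM162A had a peak in 1 of 2 HIF-1α and 1 of 2 HIF-1β libraries at 48 h (92.8 and 94.1), and its absence from the others fell on replicate 2 in both, whose lists held 3 of the 9 genes each against 7 and 8 for replicate 1. No gene of 1652 passed after adjustment (0% in either direction). At an unadjusted p under 0.05, 25 genes were lower (1.51%) and 0 higher (0%).

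The knockout experiment asked whether binding of an isoform depends on the other. With 2 libraries against 2 an exact permutation p cannot fall below 0.333, so groups are described by whether they overlap. HIF-1β is the shared partner of both α subunits. At ANKRD37 its percentiles were 94.6 and 97.8 in WT, 86.1 and 97.4 without HIF-1α and 98.5 and 99.7 without HIF-2α. The HIF-2α knockout lay above both other groups without overlap. AK4 was 48.7 and 66.3 in WT, 80.7 and 93.5 without HIF-1α and 48.8 and 49.4 without HIF-2α, so the HIF-1α knockout was higher than either. These values mix sites. At the intronic AK4 site WT had 48.7 and 63.8 and the HIF-1α knockout 80.7 and 91.0, while at the promoter-proximal site the groups overlapped (0 and 66.3 against 0 and 93.5).

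FAM162A had HIF-1β percentiles of 72.5 and 88.5 in WT and no peak in either library of the HIF-1α knockout. In the HIF-2α knockout it was at 92.96 in replicate 1 and had none in replicate 2, where a peak at 87.6 that overlapped its promoter was assigned to MIX23. It was called in 0 of 4 HIF-1α knockout libraries over both antibodies and 3 of 4 HIF-2α knockout libraries. TMEM45A was 90.6 and 83.3 in WT, 0 and 69.1 without HIF-1α and 91.8 and 86.1 without HIF-2α, and WSB1 was 60.5 and 65.1 in WT, 0 and 0 without HIF-1α and 23.5 and 0 without HIF-2α. The best WT peaks of WSB1 lay 37.8 kb upstream and that of the HIF-2α knockout at the promoter, where WT had 15.5 and 36.9 and overlapped with it. ERO1A had no peak in any of the 14 libraries of this experiment, WT included.

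Between the knockouts, HIF-1β was higher without HIF-1α at AK4 (33.6% of 3589 genes did so without overlap) and lower at ANKRD37 and TMEM45A (12.8%). Against WT, the HIF-1α knockout was higher at AK4 (6.07% of 4546 genes) and lower at FAM162A, WSB1 and TMEM45A (35.7%). The HIF-2α knockout was higher than WT at ANKRD37 (3.15% of 4317 genes) and lower at WSB1 and ZNF395 (50.9%). ZNF395 was 98.6 and 99.1 in WT and 97.8 and 94.1 without HIF-2α, values that mix sites. At the intronic site 0.462 kb before a start the knockout was lower too (95.4 and 94.1 against 98.6 and 99.1). At the intronic site 9.45 kb downstream the groups overlapped (97.8 and 93.9 against 96.1 and 96.6). HIF-1β lists held 6199 and 8279 peaks in WT, 3387 and 5786 without HIF-1α, and 2550 and 2085 without HIF-2α. With lists of equal length the HIF-2α knockout had 4 genes higher and 0 lower than WT, and the HIF-1α knockout 1 and 3.

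Each remaining isoform was also followed directly. HIF-1α at ANKRD37 was 97.8 and 99.8 without HIF-2α against 95.4 and 97.6 in WT, and at MIF 45.7 and 80.1 against 0 and 0. These 2 genes were higher without overlap (6.1% of 1770 genes) and 0 were lower (23.9%). HIF-2α at ANKRD37 was 92.8 and 97.5 without HIF-1α against 76.6 and 68.0 in WT, and at the intronic AK4 site 91.5 and 93.2 against 34.8 and 64.1, whereas at the promoter-proximal AK4 site the groups overlapped (51.1 and 82.2 against 88.7 and 0). ANKRD37, AK4, MIF and KCTD11 were higher without overlap (23.6% of 4003 genes) and WSB1 was lower (16.1%). The KCTD11 peaks ranked low, at 19.8 and 24.9 without HIF-1α against 0 and 0 in WT. The WSB1 values mix sites. Its WT peaks (29.8 and 60.2) lay 37.8 kb upstream, where the knockout had no HIF-2α peak. The knockout value of 18.8 came from a peak 38.5 kb downstream in replicate 1, and replicate 2 had no WSB1 peak.

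HKC8 cells in 0.5% oxygen for 16 h were assayed in both experiments, which allowed a check that was added after the data were seen. ERO1A was called in 4 of 6 libraries of the severity and duration experiment and in 0 of 6 WT libraries, and KCTD11 in 6 of 6 and 0 of 6. For HIF-1α, all the genes but WSB1 were lower in WT without overlap, 8 of 9 (6.5% of 2383 genes), and 0 were higher (26.4%). For HIF-1β 6 of 9 were lower (4.47% of 4591) and 0 higher (54%), and for HIF-2α AK4 and KCTD11 were lower (1.22% of 3512) and WSB1 was higher (49.6%). Lists at 16 h held 951 to 1793 peaks in the one and 1535 to 8279 in the other. With lists of equal length 8 genes were lower for HIF-1α, 9 for HIF-1β and 2 for HIF-2α, and 0 were higher. With scores of at least 100 the HIF-1α count was 3 lower and 1 higher, and 3 genes were higher for HIF-1β. With calls alone 4 were lower for HIF-1α and 2 for HIF-1β. The labels do not say what else differed between the experiments, and the cause was not tested.

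The site within a gene differed too. The ZNF395 upstream site was at 98.8 and 98.8 (HIF-1α), 95.8 and 92.5 (HIF-2α) and 98.9 and 99.1 (HIF-1β) in the severity and duration experiment. In WT, HIF-2α replicate 1 alone had a peak there, at 51.3. The intronic ZNF395 site 9.45 kb from a start went the other way, at 35.7 and 0 for HIF-1α against 89.9 and 87.3 in WT, and at 89.8 and 59.8 for HIF-1β against 96.1 and 96.6.

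The AK4 promoter-proximal site had percentiles of 95.9 to 98.97 in all 6 libraries at 16 h of the severity and duration experiment, but in WT it was called in 2 of 6, at 88.7 (HIF-2α) and 66.3 (HIF-1β). The intronic AK4 site was called in both HIF-2α libraries of WT (34.8 and 64.1) and of the HIF-1α knockout (91.5 and 93.2), and in both HIF-1β libraries of each (48.7 and 63.8, 80.7 and 91.0). It was called in 0 of 4 HIF-2α knockout libraries, in 0 of 16 HIF-1α libraries of the series, and in 0 of 12 libraries of RCC4 and HepG2, so that its 14 calls were all in HKC8.

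**Figure D4:**
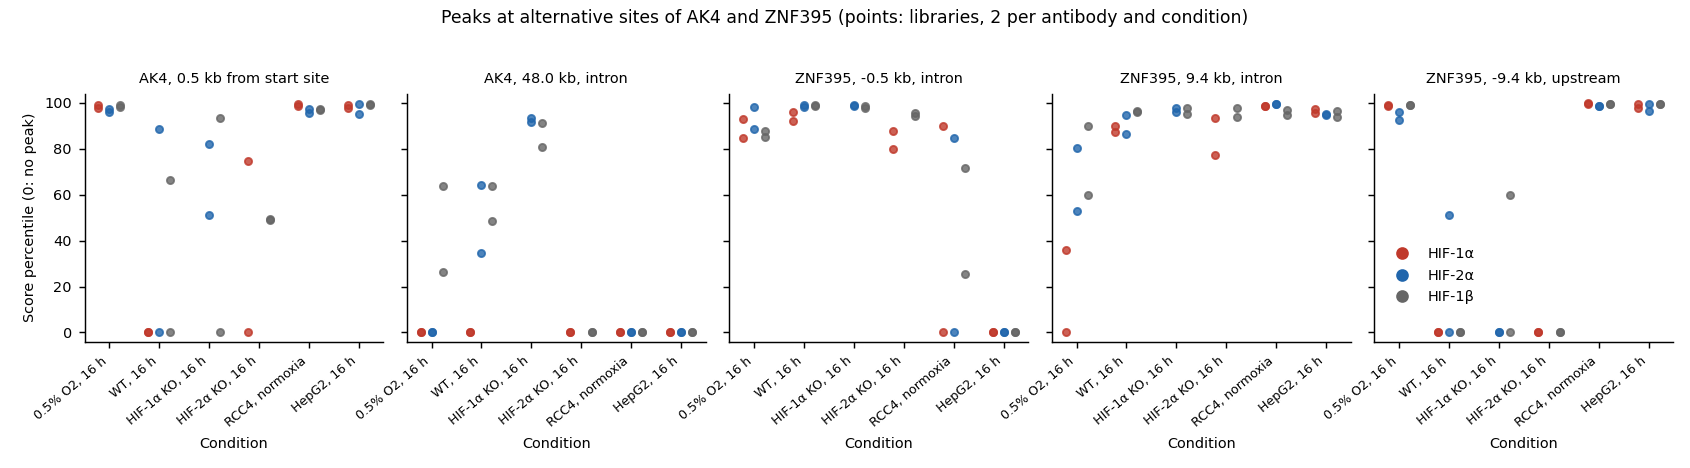
The 5 panels show 2 AK4 sites and 3 ZNF395 sites, with the condition on the horizontal axis and the score percentile (0 for no peak) on the vertical axis. Points are libraries, 2 per antibody and condition, red HIF-1α, blue HIF-2α and grey HIF-1β, and each knockout lacks the antibody to its deleted subunit. The ZNF395 upstream site is near the top at 16 h in the severity and duration experiment, RCC4 and HepG2 and nearly empty in the knockout experiment, whereas the intronic AK4 site is called in WT and the HIF-1α knockout and not in the HIF-2α knockout.

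Finally, RCC4 and HepG2 were each compared with the 6 WT HKC8 libraries, which both comparisons share. Line and experiment cannot be told apart, nor can line and oxygen level for RCC4. In RCC4, ERO1A had percentiles of 97.5 and 93.2 (HIF-1α), 88.8 and 89.3 (HIF-2α) and 87.5 and 92.4 (HIF-1β), and KCTD11 of 72.7 to 93.3 in its 6 libraries, whereas both had no peak in WT. AK4 was at 95.4 to 99.6 in RCC4 and 0 to 88.7 in WT. AK4, ERO1A, KCTD11 and ZNF395 did not overlap between the lines and were higher in RCC4 (0.677% of 4582 genes), and 0 were lower (3.54%). The best ZNF395 peaks lay at the intronic site 0.462 kb before a start in WT. In RCC4 they lay at the upstream site or the intronic site 9.45 kb downstream. At the site 0.462 kb before a start, ZNF395 was lower in RCC4 without overlap (0 to 89.9 against 92.0 to 99.1 in WT). For AK4, WT HIF-2α replicate 2 and HIF-1β replicate 1 had their best peak at the intronic site. The differences were 91.5 points for ERO1A, 81.4 for KCTD11 and 52.9 for AK4 (each p = 0.00926, the smallest the exact permutation test allows, adjusted p = 0.152). FAM162A (39.5 points), ZNF395 (2.38) and ANKRD37 (5.25, p = 0.037) brought the number higher at an unadjusted p under 0.05 in the exact permutation test to 6 of 9, against 2.1% of 4582 genes. Of these, ERO1A and KCTD11 had no WT peak. They entered the test through RCC4 alone and could only come out higher. TMEM45A was called by HIF-1α and HIF-1β in all 4 RCC4 libraries and by HIF-2α in 0 of 2. No gene passed after adjustment in either direction (0%), and 11.2% were lower at an unadjusted p under 0.05. Against HKC8 at 16 h of the severity and duration experiment, a comparison added after the data were seen, the differences were 35.0 points for ERO1A (exact permutation p = 0.0185, adjusted p = 0.535), 1.81 for ZNF395 (exact permutation p = 0.00926, adjusted p = 0.416), 26.5 for WSB1, 13.4 for ANKRD37, 13.2 for FAM162A, 6.11 for KCTD11, -0.192 for MIF and -0.364 for AK4.

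In HepG2, WSB1 and KCTD11 had a peak in 5 of 6 libraries and the other 7 genes in 6 of 6. ERO1A was at 87.6 to 97.1, MIF at 68.7 to 98.3 and TMEM45A at 90.9 to 99.3. Of the 9 genes 7 were higher than in WT at an unadjusted p under 0.05 (10.7% of 6055 genes), with differences of 92.97 points for ERO1A, 56.9 for MIF, 53.6 for AK4 and 29.3 for TMEM45A (each p = 0.00926, adjusted p = 0.0907, exact permutation test). The 7 include ERO1A and KCTD11, which had no WT peak and so could only come out higher here too. No gene passed after adjustment (0% in either direction), and 9.66% were lower at an unadjusted p under 0.05. Against the severity and duration experiment the differences were 36.6 points for ERO1A, 33.9 for MIF, 34.8 for TMEM45A (exact permutation p = 0.00926, adjusted p = 0.099), 0.415 for AK4 and -10.7 for KCTD11. Since the comparison averages all 3 antibodies equally, exchanging the labels of 2 HepG2 libraries would leave the mean of each line as it is. The p-values come from permutation within each antibody and could change, which was not tested.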

How the data were processed

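ChIP-seq peak lists of 50 libraries were analysed. The authors trimmed reads with Trim Galore 0.3.3, aligned them to GRCh37 (hg19) with BWA 0.7.5a-r405, removed reads of mapping quality under 15 with SAMtools 0.1.19, blacklisted regions with bedtools 2.17.0 and duplicates with Picard 1.106, and called peaks per library with MACS against input. The authors also used T-PIC, and kept peaks that both callers detected, that exceeded random background regions and that overlapped between replicates. Here each library's list was used whole, with no overlap between replicates required, so its peaks need not be sites of the paper. The 16 input samples were not used. The deposited score of a peak, read as -10 log10 of the MACS p and lowest at 50.0, was used only by its rank within a list, since depth is unknown.

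The score percentile of a gene is that of its best peak, and 0 without one. Genes and start sites came from GENCODE 44 lifted to GRCh37. Differences were tested by exact two-sided permutation within strata (condition or antibody) with Python 3.11.15, NumPy 2.4.6 and pandas 2.3.3, over genes with a peak in at least 2 libraries compared, with Benjamini-Hochberg adjustment over all of them. The test was checked on simulated data. Peaks that overlapped in any library were merged into sites. The text names the 9 given genes, up to 3 most frequent sites of each, and the gene most alike over the libraries. The genes, lists and tests were chosen with earlier results of these data known. Alternatives covered list length, score, distance, annotation, filter, calls alone, a replicate block and left-out libraries.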

Additional observations from a re-analysis of the deposited data

Results flagged for a closer look

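At 3 genes the sign of the difference between HIF-1α and HIF-2α was opposite in different conditions, both HIF-1α libraries lying on one side of both HIF-2α libraries in each. These differences between conditions were not tested. For AK4, HIF-1α exceeded HIF-2α by 2.45 percentile points in 0.5% oxygen at 6 h, 1.84 at 16 h, 50.7 at 48 h, 60.4 in 3% oxygen and 2.77 in RCC4, while in WT HKC8 of the knockout experiment the difference was -76.4. For WSB1 it was 79.8 in RCC4 and -45.0 in WT. For ZNF395 it was 1.112 at 6 h, 3.44 at 16 h and 11.6 in 3% oxygen, and -4.48 in WT. The sites behind these values differed. The WSB1 peaks lay at the promoter in RCC4 and 37.8 kb upstream in WT, those of ZNF395 mostly at the upstream site at 6 h, at 16 h and in 3% oxygen and at the intronic site 0.462 kb before a start in WT, and the best HIF-2α peaks of AK4 in WT at the promoter-proximal site in replicate 1 and the intronic site in replicate 2. In WT the HIF-1α lists held 1913 and 1535 peaks and the HIF-2α lists 4537 and 6749, and the part of list length was not tested within single conditions.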

How the results depend on the processing

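Over the isoform comparison, 18 genes were higher in HIF-1α and 21 in HIF-2α. Both counts fell to 0 with calls in place of percentiles, with no filter on low values, in the severity and duration experiment alone, without the 48 h condition (added after the data were seen) and without either replicate (0 to 0). The labels do not say whether libraries with the same number share chromatin or a culture, so the main test used no replicate block. With the replicate block both counts were 0. The smallest p possible was 0.000122 with the block, 0.0156 with 1 replicate and 0.00154 in the severity and duration experiment alone, so these say little about stability. Without 48 h it was 4.29e-05, as without HepG2. The counts were 7 and 7 with any annotated gene and 36 and 54 without HepG2. With equal list lengths 35 were higher in HIF-1α, and HIF-2α had 13 with scores of at least 100 and 11 within 10 kb. ANKRD37 stayed higher in HIF-1α in 12 of 12 alternatives (35.7 to 71.4 points, adjusted p 0.0116 to 1).

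Several differences that had not passed changed sign. For the isoforms, KCTD11 became 3.47 with scores of at least 100 and 0.0714 without HepG2, ZNF395 -22.5 with any annotated gene, and AK4 -1.29 without 48 h. For oxygen, ANKRD37 became 0.0099 with equal lists. For 16 h, ERO1A became -16.7 with calls, ZNF395 16.7 with any gene, and without 1 replicate AK4 ranged from -0.133 to 1.21, ANKRD37 from -17.6 to 27.1 and MIF from -2.34 to 39.0. For 48 h, TMEM45A became -2.34 within 10 kb, and without 1 replicate ANKRD37 ranged from -0.0444 to 13.5, ZNF395 from -38.5 to 0.287 and KCTD11 from -50.7 to 2.20, and MIF was 8.57 without replicate 2, the filter leaving it untested without replicate 1. For RCC4, TMEM45A became 14.7 with equal lists, 0.259 with any gene and -20.7 to 4.69 without a replicate, and ANKRD37 -0.704 with scores of at least 100. For HepG2, ZNF395 became -1.63 with any gene. Against HKC8 at 16 h of the severity and duration experiment (added after the data were seen), AK4 became -0.364 and MIF -0.192 for RCC4, and KCTD11 -10.7 for HepG2. The causes were not tested.

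Counts of the 9 genes without overlap moved in the knockout pairs. For HIF-1β between knockouts, 1 gene higher without HIF-1α became 2 with scores of at least 100, 0 with calls and 1 to 4 without a replicate, and 2 lower became 0 with calls and 2 to 6. For the HIF-1α knockout against WT, 1 higher became 0 with calls and 1 to 3 without a replicate, and 3 lower became 5 to 6. For the HIF-2α knockout against WT, 1 higher became 4 with equal lists, 0 with calls and 3 to 4, and 2 lower became 4 with scores of at least 100, 0 with equal lists or calls, 1 with any gene and 2 to 4. HIF-1α in the HIF-2α knockout had 2 higher, which became 1 with scores of at least 100 or calls and 2 to 5, and 0 lower became 1 to 2. HIF-2α in the HIF-1α knockout had 4 higher, which became 1 with calls, and 1 lower, which became 0 with scores of at least 100, calls or any gene and 2 to 3. Between both experiments at 16 h, the lower counts ranged from 3 to 9 for HIF-1α (8), 2 to 9 for HIF-1β (6) and 1 to 4 for HIF-2α (2), and the higher ones from 0 to 1 (0), 0 to 3 (0) and 0 to 4 (1).

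Peaks at the 9 genes numbered 8.16 per library and 6.2 to 8.76 under the alternatives. The share of sites with the core was 85.2% over whole sites and 88.2% for sites in at least 2 libraries. In a list that keeps peaks past a threshold, missing and weak peaks cannot be told apart, and with 2 libraries per group a single list can set a group's value.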

Other observations

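Over the 50 libraries, and among 2439 genes with a peak in at least 10 of them, the gene whose score percentiles ran most like those of each signature gene was recorded as Spearman's rho, with no test, since the libraries share antibodies, lines and list lengths. For AK4 it was PPP1R3C (0.888), a regulatory subunit that directs a phosphatase to glycogen and was called in 49 libraries, and PPP1R3C was also the closest to KCTD11 (0.734). For TMEM45A it was GBE1 (0.856), the glycogen branching enzyme, and for ZNF395 it was HILPDA (0.800), a lipid droplet protein. For FAM162A it was RBPJ (0.886), the DNA-binding effector of Notch signalling, for ERO1A CLK3 (0.853), a kinase of splicing factors, for ANKRD37 NARF (0.837), for WSB1 TPD52 (0.800) and for MIF C2orf42 (0.786). TPD52 was called in 11 libraries and WSB1 in 21.

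Membership depended on which annotated genes could compete for a peak. When the nearest start site of any annotated gene was used in place of coding genes, ZNF395 kept 94 of 134 peaks, WSB1 18 of 24, KCTD11 23 of 26 and ANKRD37 45 of 46. TMEM45A went from 33 to 34, and the other 4 genes were unchanged in number.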
